A study of Mus musculus with 7 samples.

Results

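Gpr61 encodes an orphan receptor of the G protein-coupled class. It was taken as the single row of that symbol, 1 of 50600 genes in the count table, together with both of its transcripts among 125570 in the transcript table. The gene was selected on its measured counts and TPM, which set the wild-type library apart from the others, so its values against wild type are given here as a description, with no test. RNA of mouse olfactory epithelium, the tissue that detects odours, was sequenced at postnatal day 7 in 7 libraries. WT is 1 library of genotype Amigo1+/+. KO comprises 3 libraries of the Amigo1-/- knock-out. The remaining 3 libraries, called neo, are Amigo1neo/neo, where a neomycin cassette stands in the gene instead of its coding part. KO and neo thus both lack Amigo1, which codes for an adhesion protein of the neuronal surface. The labels give neither strain nor sex, do not say whether each library came from its own animal, and describe whole dissected epithelium, so every level is a mix over cell types. In such bulk samples, fewer cells expressing a gene and less RNA per cell cannot be told apart.

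Class A receptors cross the cell membrane in helices and pass a signal to a G protein inside the cell. Gpr61 has no settled ligand. In cell assays it raises cyclic AMP without one, through the stimulatory G protein, and it is best known from the brain, where its loss in mice is linked to eating and body weight. The same second messenger carries the odour response of olfactory neurons, whose cilia hold an olfactory stimulatory G protein and the adenylyl cyclase Adcy3.

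Gpr61 (ENSMUSG00000046793.8) lies on the minus strand of GRCm38 chromosome 3, from 108148321 to 108154882. No annotated gene overlapped it. GENCODE lists 2 transcripts that begin at the same base and share exon 1, a noncoding exon of 63 bases. An intron of 2876 bases follows. The whole coding sequence, 1350 bases with the stop codon or 449 codons before it, lies in exon 2, and the script found it identical in both transcripts. Its first and last 60 bases are shown because both transcripts, and so every value below, refer to the same reading frame. Capitals mark the start and stop codons.
Start, chr3:108151284-108151343, minus strand: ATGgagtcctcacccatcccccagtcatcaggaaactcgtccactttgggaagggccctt
End, chr3:108149994-108150053, minus strand: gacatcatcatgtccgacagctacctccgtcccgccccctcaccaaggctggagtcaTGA

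The transcripts differ only beyond the stop codon. The long transcript (ENSMUST00000062028.7), annotated as protein coding, is 3686 bases long and keeps exon 2 unbroken. The short transcript (ENSMUST00000116284.1), annotated as a target of nonsense-mediated decay, is 2771 bases long. It removes an intron of 579 bases (108149173 to 108149751) that starts 242 bases after the stop codon, and it ends 336 bases earlier. Nonsense-mediated decay is the pathway that degrades transcripts with a splice junction well past the stop codon. Together these differences leave 915 bases that only the long transcript contains, while the short one is told from it by its junction alone.

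Libraries held 14879415 to 21343058 gene counts. The tissue label held up in every library, where 10 mature olfactory neuron markers such as Omp and Cnga2 summed to 3200 to 4145 CPM (counts scaled to the library total times its TMM factor). Neo replicate 1 stood apart in skeletal muscle genes, whose 7 listed members summed to 1181 CPM there and to 4.25 to 22.4 CPM in the other libraries. Amigo1 had 744 counts in WT and 0 to 16 in the KO and neo libraries, as labelled.

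In WT, Gpr61 had 1 count, or 0.0460 CPM (95% exact Poisson interval 0.00116 to 0.256, counting error only). The KO libraries held 441, 515 and 507 counts, which is 27.0, 27.6 and 28.0 CPM for replicates 1, 2 and 3. The neo libraries held 679, 389 and 374 counts, or 28.9, 23.2 and 24.9 CPM. All 6 libraries without Amigo1 were thus high, WT alone was low, and KO and neo overlapped. The lowest of the 6 stood at 80.4% of the highest. At their pooled rate of 2905 counts, WT would have held 583 counts. The pooled ratio to WT was 583, with an exact 95% interval of 105 to 23038. That interval covers counting error only, not the spread between libraries, and is wide because WT had a single count. The separately deposited RSEM estimate gave the same picture per length, at 0.03 TPM (abundance scaled to transcript length and library) in WT against 7.77 to 14.35 TPM in the other libraries.

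**Figure D1:**
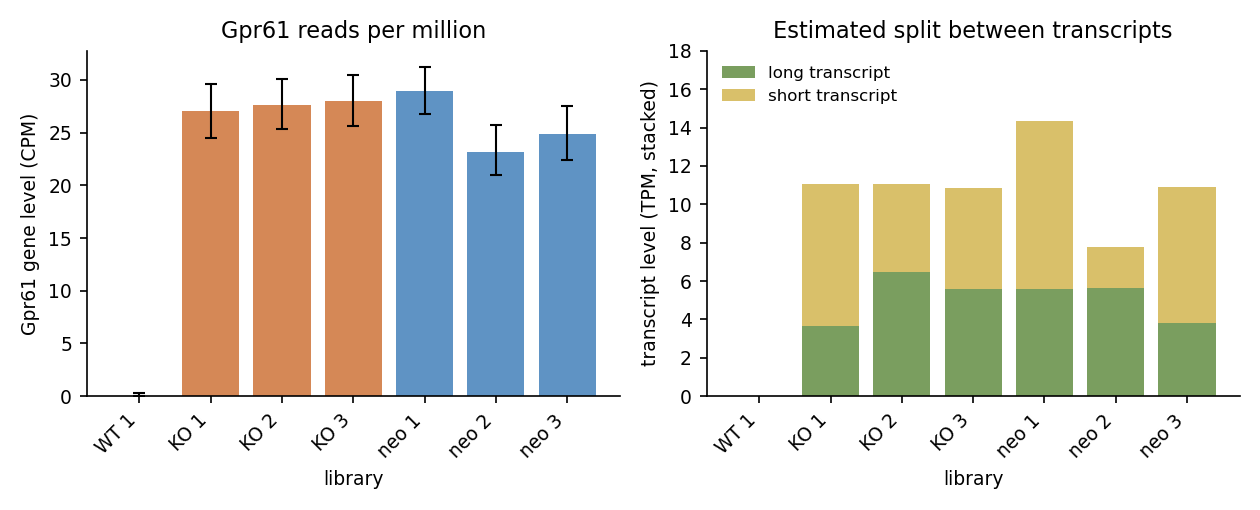
Left, Gpr61 in CPM for each library, with bars for the exact 95% Poisson interval (counting error only); right, the TPM of its 2 transcripts stacked for each library. WT stands at 0.0460 CPM and the other 6 libraries between 23.2 and 28.9 CPM, while the split between the long and the short transcript varies from library to library.

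KO libraries lay closer together than neo libraries. KO averaged 27.5 ± 0.503 CPM, and neo averaged 25.7 ± 2.91 CPM (SD over 3 libraries each). The coefficient of variation was 1.83% in KO, below the 4.54% that counting alone gives at these depths, and 11.3% in neo, above the 4.73% of counting. Whether the spread differs between the alleles was not tested.

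Neo against KO asks whether the cassette allele and the knock-out differ at this gene. Gpr61 was chosen as low in WT alone, with KO and neo both high, which made a large difference between KO and neo unlikely beforehand. The result is therefore not independent of the choice. Gpr61 differed by -0.10 on the log2 scale (SE 0.12, 95% interval -0.36 to 0.17, adjusted p = 0.843, edgeR). The interval corresponds to neo levels of 0.778 to 1.12 times those of KO, and differences within that range are not excluded. It is not a detection limit, since larger differences could also go uncalled with 3 libraries a group and adjustment over 17638 genes. Of 17638 genes tested in this comparison, 0.0170% were called at an adjusted p of 0.05. The authors' deposited table gave 0.10 for KO minus neo, with a standard error of 0.156 and an adjusted p of 0.999. Without neo replicate 1, the library with muscle transcripts, the difference was -0.19 (adjusted p = 0.492, edgeR).

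The split between the transcripts was uneven. For the long transcript the estimates were 3.67, 6.49 and 5.60 TPM in the KO libraries, in replicate order, and 5.56, 5.66 and 3.82 TPM in the neo libraries. For the short transcript they were 7.41, 4.54 and 5.25 TPM and 8.79, 2.11 and 7.07 TPM. The short transcript had the higher mean over the 6 libraries, 5.86 ± 2.39 against 5.13 ± 1.13 TPM (SD, n = 6), though each was the larger in 3 of 6 libraries. The WT estimate of 0.03 TPM was all in the short transcript and is too little to split.

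The short transcript therefore took 66.9, 41.2 and 48.4% of Gpr61 TPM in KO and 61.3, 27.2 and 64.9% in neo. The groups overlapped, with means of 52.1 ± 13.3% and 51.1 ± 20.8% (SD, n = 3 each). The difference of -1.03 percentage points was smaller than either SD (p = 0.900 by a two-sided exact permutation test, adjusted p = 1.0 over 4 transcript and gene TPM comparisons, smallest possible p 0.1). Its direction reversed without KO replicate 1 or neo replicate 2. Neo replicate 2, with the smallest share of the shorter transcript, also had the lowest gene TPM. The TPM tables hold no counts, so the depth behind the split is unknown.

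Gpr61 was then placed among 341 receptor genes of the G protein-coupled classes, chosen without olfactory, vomeronasal, taste and trace amine receptors. Ranks used TPM, which is per length and allows genes to be compared. Gpr61 ranked 31, 33 and 30 in the KO libraries and 25, 40 and 30 in the neo libraries. In WT it ranked 268. Of the 341 genes, 126 reached a median of 1 TPM over the 6 libraries and 31 had a higher median than Gpr61. Within the 58 class A orphans and leucine-rich repeat receptors of the list, it ranked between 2 and 6 in the 6 libraries and 47 in WT. It made up 6.13 to 8.59% of the summed TPM of those 58 genes in the 6 libraries and 0.0229% in WT.

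The highest receptor genes of the list were the thrombin receptor gene F2r at 60.7 ± 11.1 TPM, the chemokine receptor gene Cxcr4 at a median of 49.4 TPM (34.6 to 68.8) and the GABA-B subunit gene Gabbr1 at 47.7 ± 7.56 TPM (SD over 6 libraries). Gprc5c, a class C orphan, followed at 43.2 ± 3.53 TPM and the adhesion receptor gene Adgra3 at 35.6 ± 4.41 TPM. Each of these exceeded Gpr61, at 11.0 ± 2.08 TPM, in all 6 libraries. Next above Gpr61 in order of median were Adgre5 (12.9 ± 2.19 TPM), the planar polarity cadherin gene Celsr1 (11.8 ± 2.11 TPM) and the lysophosphatidic acid receptor gene Lpar1 (11.6 ± 1.47 TPM). Next below were the Wnt receptor genes Fzd8 (11.0 ± 1.19 TPM) and Fzd2 (10.4 ± 1.86 TPM) and the sphingosine-1-phosphate receptor gene S1pr3 (9.86 ± 1.26 TPM). These 6 neighbours differed from Gpr61 by less than their SD across libraries, and their order is not fixed by these data.

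Against that setting the receptors around it were near level by TPM between WT and the other libraries. In WT, Lpar1 stood at 11.25 TPM, Fzd8 at 12.57, Fzd2 at 11.80, S1pr3 at 9.79, Celsr1 at 11.57 and Adgre5 at 12.68 TPM. Each lay within the TPM range of the 6 libraries. By CPM, WT lay slightly below all 6 libraries for Lpar1, by 0.04 on the log2 scale with 0.5 CPM added. Among the 60 other receptor genes with a median of at least 5 TPM, the WT level lay between 0.693 times the mean of the 6, for the chemokine receptor gene Ccr1, and 1.46 times, for Celsr3. For Gpr61 this ratio was 0.00273. By TPM, WT lay within the range of the 6 libraries for 56 of those 60 genes, below it for 1 and above it for 3. The share over all genes by TPM was not computed, and the split depends on the measure. By CPM, WT lay below all 6 libraries for F2r, Lgr4, Ptger3 and Lpar6 as well as Lpar1, by 0.01 to 0.13 on the same scale. Gprc5b, below by TPM, was not below by CPM. The spread of Gpr61 over the 6 libraries was ordinary, with a coefficient of variation of 18.9% in TPM against a median of 17.9% over the 61 genes, where 34 had a smaller one.

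**Figure D2:**
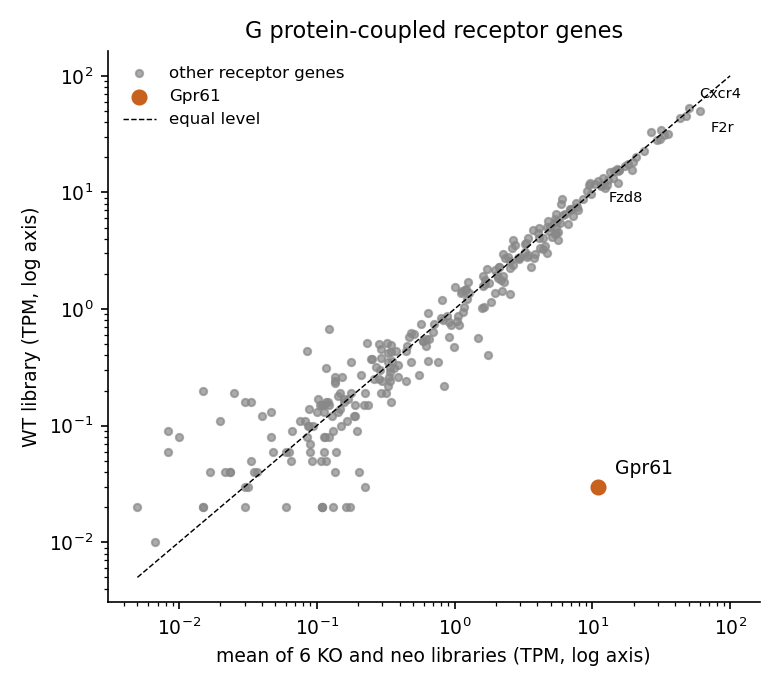
TPM of each receptor gene in the WT library against its mean over the 6 KO and neo libraries, on log axes, for the 282 genes above 0 on both. Gpr61, at 0.03 TPM in WT and a mean of 11.0 TPM in the others, lies far below the line of equal level along which genes of its level fall.

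Odorant receptors are by number the main G protein-coupled receptor family of this tissue, each expressed in a small share of the neurons. Of 1110 Olfr genes other than named pseudogenes, 1 to 16 had a higher TPM than Gpr61 in each of the 6 libraries and 1078 did in WT. The median Olfr gene stood at 1.23 to 1.91 TPM over all 7 libraries. Near-identical receptor genes can share reads, so single Olfr levels are uncertain.

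The other receptor genes were tested in the same fits. In neo against KO, 0 of 179 listed receptor genes were called by edgeR, beside 0.0170% of all genes. DESeq2 called 0 of 323, beside 95 of 30780 genes, where both totals include genes of very low count. At an unadjusted p under 0.05 there were 7 higher and 10 lower by edgeR, where 4.59% and 4.72% of all genes were (9.32% in either direction), and 19 in all by DESeq2, where 5.06% were. The median log2 difference over the 179 was -0.05, against -0.002 over all genes. The smallest p belonged to the prostacyclin receptor gene Ptgir, with 2.76, 4.61 and 3.42 CPM in KO against at most 1.87 CPM in neo (mean 1.55 ± 0.341 CPM, SD over 3 libraries; adjusted p = 0.384, edgeR). The adhesion receptor gene Adgre4 had 0.551, 0.482 and 0.221 CPM in KO against 1.02, 0.956 and 1.33 CPM in neo (adjusted p = 0.470, edgeR). The adrenergic receptor gene Adra2c had 9.74, 11.0 and 9.22 CPM in KO against 12.7, 20.4 and 14.3 CPM in neo (adjusted p = 0.470, edgeR). KO and neo libraries did not overlap for any of these 3 genes, but they were picked by smallest p, which favours such genes. The share of all genes without overlap was not computed, and none of the 3 was called.

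Comparisons with WT used all 7 libraries in 1 fit and share the WT library. The spread of WT is unknown and was taken from the KO and neo libraries. Even Amigo1 was not called by edgeR in either comparison, at log2 differences of -6.24 in KO and -6.81 in neo. A lack of calls against WT therefore does not show that genes were unchanged. Gpr61 entered the fit with all other genes and is counted in the shares of all genes against WT. Its own result is not given, since Gpr61 was chosen by these contrasts. Of the other 203 receptor genes tested, edgeR called 0 in KO and 0 in neo, beside 0.00523% and 0.0105% of all genes. Without adjustment, 3 of them (2 higher in KO, 1 lower) had a p under 0.05 for KO, where 0.727% of all genes did (0.288% higher, 0.439% lower). In neo there were 7 (4 higher, 3 lower), where 2.97% of all genes did (1.24% higher, 1.72% lower). DESeq2 called 0 of the other 324 in either comparison, with 0 in KO and 5 in neo at an unadjusted p under 0.05, where 0.268% and 1.37% of all genes were.

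Most receptor genes with the next smallest p against WT were low. Avpr1a, a vasopressin receptor gene, had 0.0460 CPM in WT, 0.306, 0.214 and 0.442 CPM in KO and 0.426, 0.657 and 0.532 CPM in neo. Its difference from WT was 2.63 in KO and 3.36 in neo on the log2 scale (adjusted p = 1.0 for both, edgeR). Chrm2, a muscarinic acetylcholine receptor gene, went the other way, with 0.644 CPM in WT and 0.0552 to 0.239 CPM in the 6 libraries (log2 difference -2.69 in KO, adjusted p = 1.0, edgeR). Grm5, a glutamate receptor gene, had 0.0919 CPM in WT and a mean of 0.705 ± 0.240 CPM in KO. Ccr4, a chemokine receptor gene, had 0.0460 CPM in WT and 0.883 ± 0.391 CPM in neo (SD, n = 3). Ptgir, at 3.59 CPM in WT, differed by -1.19 on the log2 scale in neo. None of these 3 passed (adjusted p = 1.0, edgeR). WT lay below all 6 libraries for 22 of 204 receptor genes, Gpr61 among them, or 10.8%, against 7.83% of all genes tested. It lay above all 6 for 10 of them, or 4.90%, against 8.13% of all genes.

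The receptors usually grouped with Gpr61 were scarce in this tissue. Gpr62 and Gpr135, its closest relatives by sequence, had 4 to 6 and 5 to 10 counts per library, or 0.15 to 0.32 and 0.29 to 0.43 TPM. Both were as low in WT as elsewhere, at 4 and 8 counts. The melatonin receptor genes Mtnr1a and Mtnr1b had 1 to 6 counts per library and 0 counts in any library, and the melatonin-related receptor gene Gpr50 had 2 to 11 counts. The constitutively active, cyclic AMP-raising receptors gave 0 to 9 counts for Gpr3, 1 count over all libraries for Gpr6 and 6 to 29 counts for Gpr12. Gpr135 and Gpr12 passed the count filter over the 7 libraries and were not called against WT by edgeR. The highest value of the 8 genes in any library was 1.12 TPM, for Gpr12, so small changes in them were not detectable at this depth.

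The cyclic AMP cascade, the route by which Gpr61 signals, was compared next through 48 genes for G protein subunits, adenylyl cyclases, phosphodiesterases, kinase subunits, receptor kinases and arrestins. In neo against KO, 0 of 47 tested were called by edgeR, beside 0.0170% of all genes. DESeq2 called 0 of 48, beside 95 of 30780 genes. At an unadjusted p under 0.05 there were 0 higher and 6 lower by edgeR, beside the same 4.59% and 4.72% of all genes, and 4 in all by DESeq2, beside 5.06%. The median log2 difference was -0.07. The smallest p were those of the transcription regulator gene Crem (KO 12.2 ± 3.33 CPM, neo 8.19 ± 0.528 CPM), the cyclic AMP sensor gene Rapgef4 (KO 4.95 ± 0.745 CPM, neo 3.38 ± 0.118 CPM) and the phosphodiesterase gene Pde1a (KO 8.61 ± 0.479 CPM, neo 6.16 ± 1.12 CPM). Their adjusted p were 0.498, 0.501 and 0.505 by edgeR, with 3 libraries a group.

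Against WT the cascade showed 0 calls of 47 in both comparisons by edgeR, where 0.00523% and 0.0105% of all genes were called, and 0 of 48 by DESeq2. At an unadjusted p under 0.05 there was 1 gene in KO against WT, the inhibitory G protein gene Gnai3, and 0 in neo against WT, beside 0.727% and 2.97% of all genes. DESeq2 gave 1 and 0, beside 0.268% and 1.37%. The next smallest p in KO were those of the phosphodiesterase gene Pde4b (log2 difference 0.44) and Rapgef4 (0.56). In neo they were those of Pde7b (-0.24), Pde8a (-0.30) and the sensor gene Rapgef3 (-0.50), all with an adjusted p = 1.0 by edgeR. Medians were 0.07 and 0.01, against 0.01 over all genes in both comparisons. Since Amigo1 also went uncalled by edgeR against WT, the lack of calls does not show that the cascade was unchanged.

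Gnai3 is also the next gene on the chromosome, 2.17 kb downstream of Gpr61 on the same strand (108107280 to 108146146). It had 130 CPM in WT, 161, 157 and 160 CPM in KO and 143, 146 and 149 CPM in neo. By CPM, WT was the lowest library and KO lay above neo without overlap. By TPM this order was lost, with 59.68 TPM in WT and 57.10 to 73.99 TPM in the other libraries. The log2 differences were 0.30 for KO against WT (SE 0.11) and 0.17 for neo against WT (adjusted p = 1.0 for both, edgeR), and -0.13 for neo against KO (adjusted p = 0.659, edgeR). The step seen in Gpr61 was therefore not seen at its nearest neighbour.

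The other genes within 100 kb did not follow Gpr61. Upstream of it, the noncoding gene Gm12524 begins 11.6 kb away and had 1 count in all 7 libraries. Amigo1 starts 31.5 kb away on the opposite strand, at 34.2 CPM in WT and 0 to 0.884 CPM elsewhere, so the WT library, high in Amigo1, was the one low in Gpr61, and Amigo1 genotype and library cannot be told apart with 1 WT library. Cyb561d1, a cytochrome b561 family gene 40.8 kb away, had 21.7 CPM in WT, 17.1 to 18.9 CPM in KO and 1.62 to 2.86 CPM in neo. Atxn7l2, an ataxin 7-like gene, had 6.62 CPM in WT, 4.10 to 6.68 CPM in KO and 1.13 to 1.43 CPM in neo. By CPM these flanking genes separate neo from KO and WT, whereas Gpr61 separates WT from both. In neo against KO, Cyb561d1 was called (adjusted p = 0.00348, edgeR) and Atxn7l2 was not (adjusted p = 0.107, edgeR). On the far side of Gnai3, the cone transducin gene Gnat2 had 0.199 to 0.837 CPM and the AMP deaminase gene Ampd2 had 10.2 to 16.4 CPM, highest in WT. Beyond Atxn7l2, the noncoding Gm42754 had 0.138 CPM in WT, 0 to 0.0536 CPM in KO and 0.798 to 1.14 CPM in neo, while Sypl2 was high only in neo replicate 1, at 9.66 CPM. Gm12500, Gm12501 and 1700010K24Rik had at most 17 counts in any library.

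**Figure D3:**
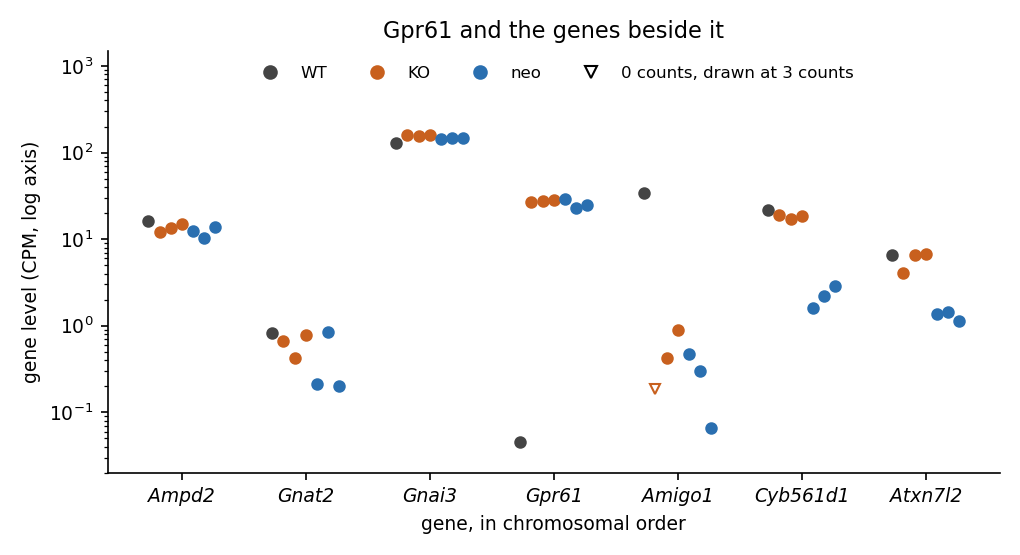
CPM of Gpr61 and 6 genes around it in chromosomal order, on a log axis, with 1 point per library and a triangle at 3 counts where a library had 0. Gpr61 is low in WT alone, Amigo1 is high in WT alone, and Cyb561d1 and Atxn7l2 are low in the 3 neo libraries.

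No other gene tested had a pattern of this size. Gpr61 was chosen for being low in WT alone, so its first place here follows from the choice and is a description only. Likeness was measured over the 7 libraries as the log2 gap between the lowest KO or neo library and WT, with 0.5 CPM added to each. The gap was 5.44 for Gpr61 and 0.78 for the next gene, and Gpr61 was the 1 gene of 19123 with a gap of at least 1. In the opposite direction, 9 genes stood at least 1 higher in WT than in any other library, led by Amigo1 at 4.65. The 5 genes next to Gpr61, other than clone names, were Slc22a21 (0.78), the enamel protein gene Amelx (0.71), the chitinase-like gene Chil4 (0.62), the odorant receptor gene Olfr1375 (0.56) and the bicarbonate transporter gene Slc4a10 (0.51). Slc22a21, a carnitine transporter gene on chromosome 11, had 0.919 CPM in WT and 1.93 to 3.59 CPM in the others. Chil4 lies on chromosome 3 as Gpr61 does, at 106201490 to 106219507. It ranged from 22.4 to 99.1 CPM in the 6 libraries, far more than Gpr61, against 14.4 CPM in WT. Amelx varied most, from 1.90 to 220 CPM in the 6 libraries, against 0.965 CPM in WT.

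**Figure D4:**
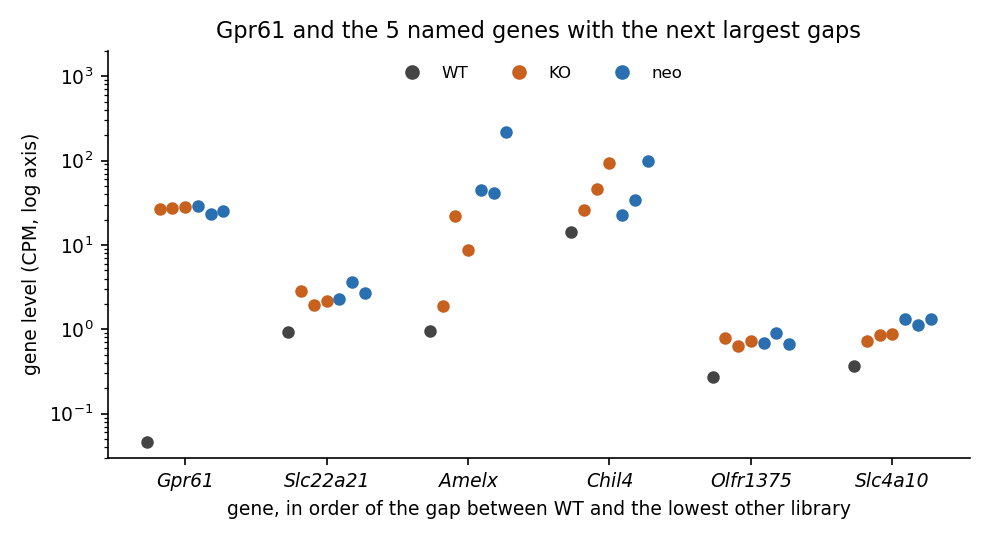
CPM of Gpr61 and the 5 named genes with the next largest gaps between WT and the lowest other library, on a log axis, with 1 point per library. The WT point is 5.44 below the other libraries for Gpr61 on the log2 scale with 0.5 CPM added, and 0.51 to 0.78 below for the rest.

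Several other measures set WT apart and are given beside the Gpr61 values. Of 11 autonomic ganglion neuron markers, 9 were higher in WT than in all 6 other libraries, as were 8.13% of all genes tested. Th (0.184 CPM in WT, up to 0.266 CPM elsewhere) and Ddc (1.15 CPM in WT, 2.81 CPM in neo replicate 1) were not. The 11 markers summed to 76.5 CPM in WT, 32.5 to 48.6 CPM in KO and 31.8 to 37.0 CPM in neo. Prph alone gave 44.7 CPM of that sum in WT and 26.6 to 43.1 CPM in the 6 libraries. Vip stood at 14.3 CPM in WT and at most 0.731 CPM elsewhere. Hand2 and Slc18a3, defining markers of those neurons, were at 0 counts in the 6 libraries in which Gpr61 was high. All 5 blood genes were also highest in WT, with a sum of 425 CPM against 223 to 368 CPM. The part of these differences in the Gpr61 level was not tested.

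Libraries also differed in sex-linked transcripts. Xist, made from the inactive X chromosome, had 643 CPM in WT, 1144 CPM in neo replicate 1 and at most 4.18 CPM in the rest. Gpr61 stood at 0.0460 CPM in WT, at 28.9 CPM in neo replicate 1 and at 23.2 to 28.0 CPM in the libraries low in Xist. The part of sex in the Gpr61 level was not tested. The sample names of WT and KO carry the same date-like number and those of neo another. The labels do not say what the number stands for, and its part in the Gpr61 level was not tested. Pituitary and hypothalamus genes, markers of places where Gpr61 is known, summed over 12 genes to 3.95 CPM in WT and 2.38 to 4.58 CPM in the 6 libraries, with Hcrt and Tshb at 0. Their WT sum lay within the range of the others. So did that of 10 olfactory bulb neuron markers, at 444 CPM in WT and 385 to 474 CPM in the 6 libraries. Most of that sum came from Calb2 (254 CPM in WT), Slc17a6 (84.4 CPM) and Cdhr1 (84.2 CPM). Tbr1, Tbx21 and Eomes had at most 5.06 CPM in any library, so the sum says little about bulb tissue.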

How the data were processed

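RNA from 7 libraries of mouse olfactory epithelium at postnatal day 7 was grouped by the sample titles. The members and gene lists were chosen with earlier results of these data known. The deposited count table holds whole reads per gene, with genome GRCm38 and the tools Trimmomatic 0.35, STAR 2.5.1b, RSEM and DESeq2 1.18.1 named without roles, per the submitters' processing notes. The table's name says that counting was stranded. Multimapping reads, 14.5 to 19.6% of reads, stand in 1 of 4 summary rows that were left out. Deposited TPM values per gene and transcript are RSEM estimates, per the file headers. The authors' table of KO against neo gives a log2 fold change, its standard error (used as a score) and an adjusted p-value per gene. It also holds a normalised signal, the deposited count over 1 factor per library. Its first group was taken as KO because its fold change follows KO minus neo in those columns.

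Counts were tested with edgeR 4.0.16 (TMM, filterByExpr with minimum count 10 and minimum total 15, robust quasi-likelihood, Benjamini-Hochberg at 0.05, two-sided) and checked on simulated data. Poisson intervals cover counting error only, while the edgeR interval of a difference covers the spread between libraries, and since the labels name no separate animals, p-values reflect only sample-to-sample spread, possibly technical. Alternatives used DESeq2 1.42.0, limma 3.58.1 on log2 of TPM (mean of at least 0.5) with pseudocounts of 0.1 and 1, other filters, scalings and left-out libraries. Named were the 5 highest receptor genes, 3 on each side of Gpr61, 8 relatives, called or otherwise the 3 smallest-p genes per list, the 5 most alike in pattern and genes within 100 kb. Annotation and transcript sequences came from GENCODE M21 on GRCm38. Of 343 listed receptor genes, 2 were not matched. A listed marker gene is not reported here and was left out of its list's sum.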

Additional observations from a re-analysis of the deposited data

How the results depend on the processing

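The log2 difference of Gpr61 between neo and KO kept its direction and stayed short of the threshold in all 14 alternatives, from -0.19 to -0.02, with adjusted p of 0.492 to 0.996 (edgeR, DESeq2 and limma). Leaving out 1 library gave both ends of that range, without neo replicate 1 and without neo replicate 2. Counts of called receptor and cascade genes stayed at 0 between neo and KO in 14 alternatives each. The share in the short transcript turned direction without KO replicate 1 (6.34 percentage points) and without neo replicate 2 (10.9), and over left-out libraries it ran from -7.94 to 10.9. The cause was not tested. The median rank of Gpr61, 30.5, was 13.5 within class A genes alone, a shorter list, and 35.0 with chemosensory receptor genes added, a choice made after seeing the data. With the replicate number as a block the Gpr61 difference was -0.10 (adjusted p = 0.866, edgeR), and no receptor or cascade gene changed its call. Deviations of libraries with the same number correlated at -0.144, -0.0485 and 0.187, and those with different numbers at -0.187 to 0.237. These values show no sign that the numbers pair the samples but cannot exclude it. Over all genes, neo against KO gave 3 calls by edgeR, 95 by DESeq2, 40 without a count filter, 1 under the block, 1 with at least 50 counts in 3 libraries and 1 by limma. Leaving out a library gave 1 (KO replicate 2 or 3, neo replicate 3) to 17 (neo replicate 1). KO against WT gave 1 call, 6 with only those groups, 2 without a filter, 4 without neo replicate 1 and 2 without neo replicate 3. Neo against WT gave 2, 7 without a filter, 5 without KO replicate 1 and 6 without neo replicate 1. The single WT library limits every comparison with it, since leaving it out leaves none.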
